A study of Gallus gallus with 20 samples.

Results

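Homeobox regional identity factors are the transcription factors that mark where a neuron or a gland cell arose along the embryonic head. The genes described here are the 107 of 28021 genes in the deposited table whose symbols belong to the HOX, NKX, LHX, DLX, PAX, OTX, OTP, EN, GBX, IRX, BARHL, EMX, MEIS, PBX, POU, RAX and VAX families, to the sine oculis family (such as Six2, SIX3 and SIX4), or are ISL2. LHX3, LHX4 and SIX6 were set aside by the same rule. Its POU pattern does not take POU1F1, which is used below as an anterior pituitary endocrine marker. The rule uses symbols and no measured value. The family column of the table names a homeobox, LIM, paired, POU, OTX or related family for all but 2 of them: the gene model called Pou5f3 carries the family NPDC1, and LHX4-AS1 carries no family and is described as an antisense RNA. PAX1 and PAX9 have a paired domain and no homeodomain. Both kinds are kept because the rule takes them.

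The birds were male Korat chickens, a slow-growing meat type, caged singly and measured until 10 weeks of age. From 200 males, birds at the low and at the high end of residual feed intake (RFI) were chosen; RFI is the feed eaten beyond what growth and weight predict, so a low value means a bird that eats less than predicted. RNA was pooled between birds and sequenced in 20 libraries, 5 for each of 4 groups: hypothalamus of low RFI birds, hypothalamus of high RFI birds, and the pituitary of each. No genotype or treatment separates the groups, and all birds share strain, sex, age and a commercial feed given without restriction. The design text describes 10 birds in 5 pools per group for the hypothalamus, and 8 birds in 4 pools of 2 per group for the pituitary, with pituitary pools made of birds of successive RFI rank. By title there are 5 pituitary libraries in each RFI class, and all were kept. Because each library is a pool, a p-value here reflects how pools vary and not how single birds vary.

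A homeodomain is a small protein fold that binds short DNA sites, and the factors that carry it are switched on in bands and columns of the embryonic brain. OTX2 marks forebrain and midbrain, EN1, EN2, PAX2 and PAX5 the border of midbrain and hindbrain, GBX2 the anterior hindbrain and later the thalamus, and HOX genes the hindbrain and spinal cord. NKX2-1, RAX, OTP, VAX1 and SIX3 mark parts of the hypothalamus and its surroundings, and the sine oculis genes are also used in the placodes and in Rathke's pouch, the oral ectoderm from which the anterior pituitary forms. Many of these genes stay on in adult cells, and they are used as markers of regions and cell types in dissected brain. These roles are known mainly from mouse and chick embryos.

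Libraries held 10262777 to 12647034 counts, and levels of a gene are given as CPM, its count relative to the scaled library total in the usual per-million unit, in which 1 count was worth 0.0752 to 0.0974. The anterior pituitary endocrine markers (12 genes found of 13 listed) summed to 14.6 to 68.2 CPM in the 10 hypothalamus libraries and to 21200 to 103000 CPM in the 10 pituitary libraries. Of the hypothalamic peptides, AVP ranged from 27.4 to 1240 CPM and CRH from 10.3 to 43.8 CPM in the hypothalamus, and the melanin-concentrating hormone gene PMCH reached 2.85 CPM at most. In the pituitary AVP and CRH reached at most 89.6 and 17 CPM. CARTPT and POMC went the other way, at 282 and 8440 CPM or more in the pituitary against at most 14.2 and 17.3 CPM. AGRP, GHRH and PMCH reached 15, 97.8 and 10.6 CPM in the pituitary, each in high RFI library 4, against at most 1.94, 21.9 and 2.85 CPM. Of the 12 hypothalamus markers found, 3 were higher and 5 lower in the pituitary (edgeR, adjusted p under 0.05), and 4 did not pass. Of all genes tested 38.3% were higher and 32.5% lower. The 11 hypothalamus markers other than POMC summed to 241 to 1460 CPM in the hypothalamus and 337 to 1500 CPM in the pituitary. That sum, which includes CARTPT, does not separate the tissues. Some libraries stood apart by marker lists from which the members described here were removed. In pituitary low RFI library 1 all 7 glial markers were at their highest of the 10 pituitary libraries and summed to 24100 CPM against 523 to 11300 CPM in the others, and its endocrine markers had the lowest sum, 21200 CPM. In pituitary high RFI library 4, 6 of 8 cerebellum and midbrain-hindbrain markers were highest, with a sum of 1290 CPM against 207 to 454 CPM. All 6 sensory neuron markers were highest in pituitary low RFI library 2, with 668 CPM against 16.6 to 59.3 CPM. Of 8 oral epithelium markers, 5 were highest in pituitary low RFI library 4, with 996 CPM against 154 to 478 CPM. In hypothalamus low RFI library 2, the choroid plexus markers summed to 25700 CPM against 127 to 471 CPM. TTR alone held 25600 CPM of that sum. Pineal markers summed to 2090 CPM there against 1.59 to 8.89 CPM, with ASMT at 1160 CPM and TPH1 at 909 CPM. Of the 2 lists AQP1 and GNAT2 were highest in other hypothalamus libraries. In bulk RNA, a larger number of cells of a type and more RNA per cell cannot be told apart.

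Of the 107 members, 93 had at least 1 count and 14 had none in all 20 libraries. In 69 a library reached 1 CPM, and in 27 the mean over a tissue reached 10 CPM. The members of a library summed to 661 to 919 CPM in the hypothalamus and to 804 to 1370 CPM in the pituitary, with pituitary low RFI library 1 the lowest of its tissue. Levels of different genes were compared on the deposited FPKM values, which take gene length into account. In the hypothalamus the leading members were NKX6-2, with a mean of 35.6 FPKM (24.2 to 45), and NKX2-2 with 35.4 FPKM (24.5 to 47.3). Meis2a.2 with 34.4 FPKM (16.1 to 55) and NKX6-1 with 30.9 FPKM (25.8 to 39.7) came next. The ranges of these 4 over the libraries overlapped, and no test between genes was run. In the pituitary SIX3 led with 268 FPKM (106 to 358), above Six2 with 83.9 FPKM (30.4 to 114), Meis2a.2 with 57.5 FPKM (28.2 to 72.5) and PAX6 with 31.8 FPKM (15.5 to 42.9). Across libraries the FPKM ranges of SIX3 and Six2 met between 106 and 114 FPKM, and those of Six2, Meis2a.2 and PAX6 overlapped one another. Both SIX3 and Six2 were lowest in low RFI library 1, at 129 and 29.3 CPM. Such ranges thus do not give the order of genes within a library.

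**Figure D1:**
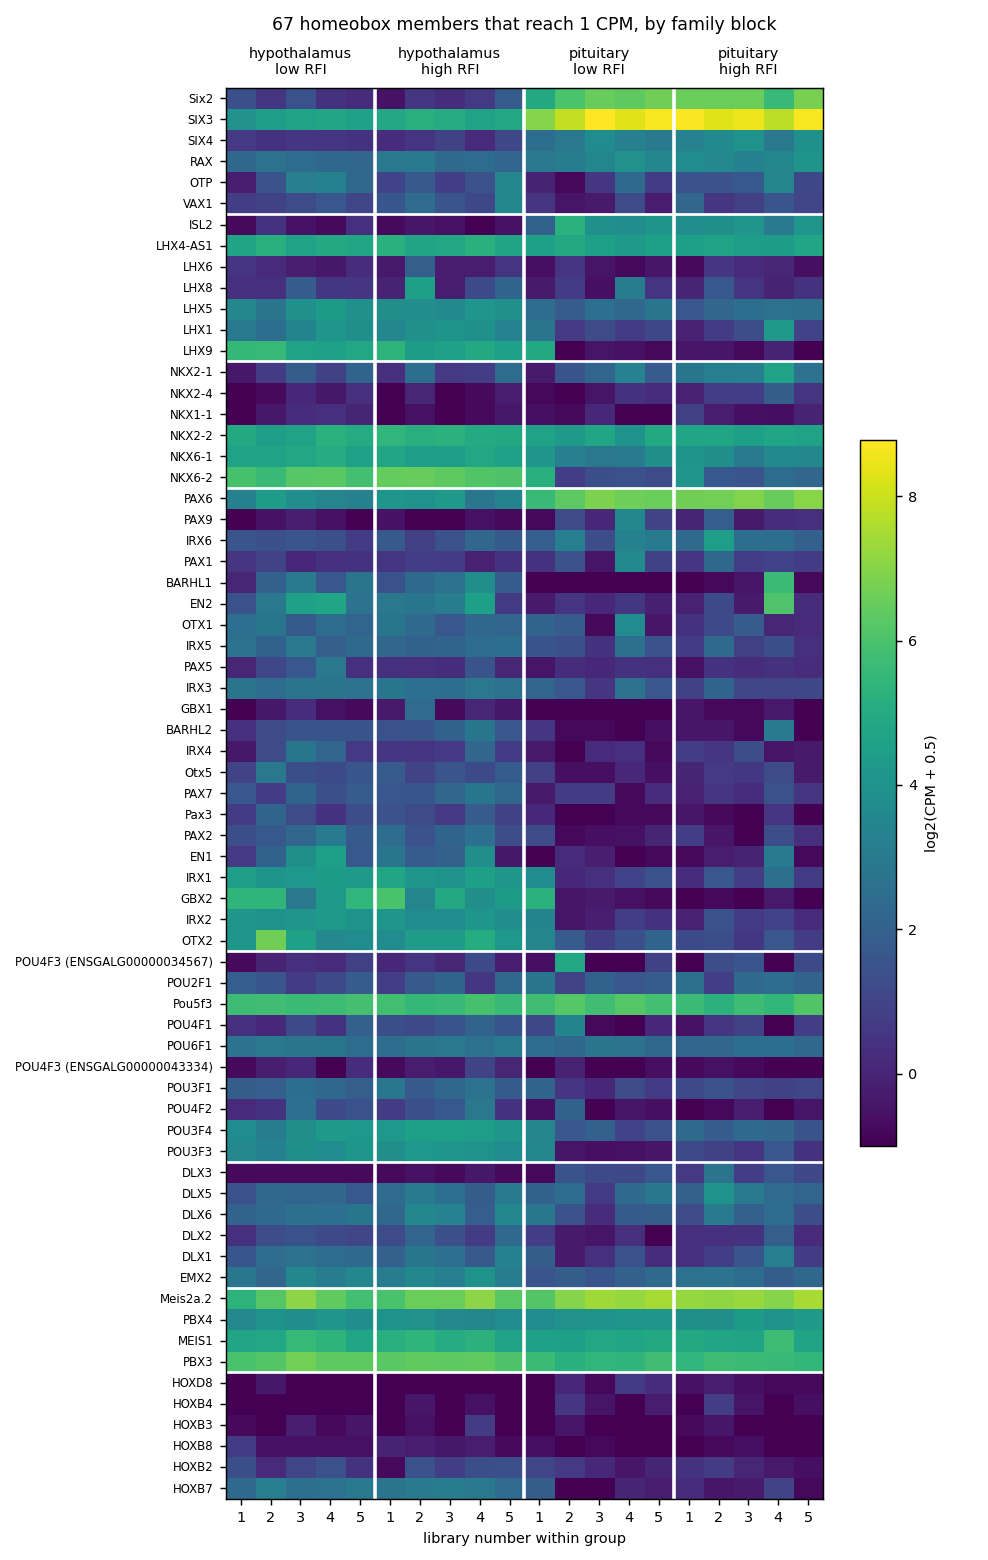
Level of 67 members that reached 1 CPM in a library, as log2(CPM + 0.5) in colour, with members in rows by family block and the 20 libraries in columns by group. Six2, SIX3 and PAX6 rows are brighter in the pituitary, LHX9, NKX6-2, GBX2 and IRX rows are brighter in the hypothalamus, and pituitary low RFI library 1 and high RFI library 4 hold bright cells that the other pituitary libraries lack.

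Between the tissues, 61 members had enough counts for the test and 46 did not. In the pituitary 14 of the 61 were higher and 35 lower than in the hypothalamus, and 12 did not pass (edgeR quasi-likelihood test, Benjamini-Hochberg adjusted p under 0.05 over all genes). Most genes differed between these tissues: 70.8% of the 16747 genes tested were called, 38.3% higher and 32.5% lower in the pituitary, against 80.3% of the members tested, 23% higher and 57.4% lower. Before adjustment 73% of genes and 85.2% of the members tested had a p under 0.05. The median log2 fold, pituitary minus hypothalamus, was -1.01 over the tested members and 0.07 over all genes. A member that was counted in 1 tissue only could pass the count filter only by differing, so these counts describe the members tested and not all 107. With scaling by library size alone the split of all called genes moved from 54.1% to 70.1% higher, the median of all genes from 0.07 to 0.37, and the members to 18 higher and 26 lower. In 6 members every pituitary library lay above every hypothalamus library, and in 9 every hypothalamus library lay above every pituitary library, 24.6% of the members tested. Among all genes tested the groups did not overlap in 18.9%, 10.9% with the pituitary higher and 8.06% with the pituitary lower.

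The sine oculis genes Six2, SIX3 and SIX4 rose in the pituitary. Their products bind DNA through a homeodomain and an adjoining conserved domain, and several work with EYA proteins in placodes and pituitary. SIX3 (ENSGALG00000032259, chromosome 3, 25943217 to 25946344, positions here and below on GRCg6a as deposited) had a lowest, median and highest value of 129, 346 and 437 CPM in the pituitary and of 14.7, 25.2 and 34 CPM in the hypothalamus. Its log2 fold was 3.69 (SE 0.20; edgeR, adjusted p = 8.61e-11). Six2 (ENSGALG00000023303), 56.5 kb away on the same chromosome (26002837 to 26005896), had 29.3, 91.9 and 110 CPM in the pituitary and 0.195, 0.952 and 3.04 CPM in the hypothalamus, a log2 fold of 5.97 (SE 0.36; edgeR, adjusted p = 2.93e-10). SIX4 (ENSGALG00000017389, chromosome 5, 54570181 to 54576242) had 5.33, 9.21 and 15.1 CPM against 0.616, 0.893 and 1.61 CPM (log2 fold 3.33, SE 0.22; edgeR, adjusted p = 6.92e-10). In these 3 the tissues did not overlap, and the lowest pituitary value came from low RFI library 1, the library with the lowest sum of endocrine markers; high RFI library 4 was the next lowest in Six2 and SIX3.

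Of the other members of this block, RAX, a retina and hypothalamus factor, rose in the pituitary, where its lowest, median and highest values were 7.03, 10.9 and 16 CPM against 4.11, 4.76 and 7.33 CPM (log2 fold 1.12, SE 0.15; edgeR, adjusted p = 4.25e-06). VAX1, a factor of the ventral forebrain and optic nerve, fell in the pituitary, with a mean of 1.41 CPM against 3.12 CPM (log2 fold -1.17, SE 0.41; edgeR, adjusted p = 0.0159). OTP, which specifies neuroendocrine neurons of the hypothalamus, did not pass, with a mean ± SD of 2.68 ± 3.01 CPM in the pituitary and 4.36 ± 3.81 CPM in the hypothalamus (n = 10 each). Its log2 fold was -0.85. It passed in 1 of 20 fits that left out a library, at -1.41 without pituitary low RFI library 4 (edgeR, adjusted p = 0.0421). RAX2 had 19 counts in all and was not tested.

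PAX6 and ISL2 were also fully separated between the tissues with the pituitary higher. PAX6, a factor of eye, forebrain and pituitary (ENSGALG00000012123, chromosome 5, 5444151 to 5461448), had 47.8, 99.2 and 132 CPM in the pituitary and 6.6, 11.7 and 20.5 CPM in the hypothalamus. Its log2 fold was 2.90 (SE 0.21; edgeR, adjusted p = 2.3e-09). ISL2, a LIM homeodomain factor of motor and sensory neurons (ENSGALG00000033391, chromosome 10, 3800164 to 3803610), had 3.56, 14.3 and 37.5 CPM against 0, 0.178 and 0.85 CPM, a log2 fold of 5.92 (SE 0.48; edgeR, adjusted p = 9.8e-09). Its highest value was in pituitary low RFI library 2, where the sensory neuron markers were also highest, and without that library the log2 fold was 5.66.

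The NKX, LIM and IRX genes with high levels in the hypothalamus fell in the pituitary. NKX6-2, which in mouse acts in oligodendrocytes and in ventral neural tube (ENSGALG00000010500, chromosome 6, 36216483 to 36218976), had 47.9, 71.9 and 89.9 CPM in the hypothalamus and 1.2, 2.6 and 35 CPM in the pituitary. Its log2 fold was -3.29 (SE 0.54; edgeR, adjusted p = 3.35e-05), and -4.38 without pituitary low RFI library 1, which held the 35 CPM. Its paralogue NKX6-1, known from motor neurons and pancreatic beta cells, had 21.1, 24.5 and 32.6 CPM against 6.91, 11.8 and 16.7 CPM (log2 fold -1.14, SE 0.16; edgeR, adjusted p = 4.98e-06). NKX2-2, a factor of ventral neural tube and of oligodendrocyte differentiation, differed less, with 32.1 ± 6.33 CPM against 24.3 ± 4.43 CPM and a log2 fold of -0.40 (SE 0.12; edgeR, adjusted p = 0.00662). With scaling by library size alone it no longer passed (-0.11; edgeR, adjusted p = 0.415). NKX2-1 went the other way: this factor, needed for hypothalamus and posterior pituitary, had 0.265 to 5.24 CPM in the hypothalamus and 0.323 to 24.4 CPM in the pituitary, with a log2 fold of 1.51 (SE 0.52; edgeR, adjusted p = 0.0152). Its ranges overlap widely. Its fold was 1.17 without pituitary low RFI library 4, and without the 5 libraries that stood apart its log2 fold was 1.10 and did not pass (edgeR, adjusted p = 0.0514). In all, 1 NKX member rose and 3 fell of 12, NKX2-4 did not pass (1.41; edgeR, adjusted p = 0.0604) and 7 were not tested. Of the tested 5, NKX6-1 and NKX6-2 had tissues that did not overlap. Over all genes tested, 38.3% rose and 32.5% fell, and in 18.9% the tissues did not overlap.

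Among the LIM factors, LHX5, a factor of forebrain and Cajal-Retzius neurons in mouse (chromosome 15, 12856850 to 12862055), was separated between tissues, with 6.32, 14 and 19.4 CPM in the hypothalamus and 2.67, 5.2 and 6.28 CPM in the pituitary (log2 fold -1.51, SE 0.19; edgeR, adjusted p = 1.2e-06). LHX9, a factor of the thalamus and pretectum (chromosome 8, 2669865 to 2680557), had 20.5, 26.2 and 46.8 CPM in the hypothalamus and 0, 0.202 and 29.7 CPM in the pituitary. Its log2 fold was -4.73 (SE 0.88; edgeR, adjusted p = 0.00011), and -7.48 without pituitary low RFI library 1, which alone held more than 0.451 CPM. LHX1, a partner of LHX5 in early neurons, fell by 1.79 on the log2 scale (edgeR, adjusted p = 0.00551), and by 2.75 without pituitary high RFI library 4, where it stood at 18.9 CPM. LHX4-AS1 had 29.5 ± 4.86 CPM against 23.2 ± 2.99 CPM (log2 fold -0.35, SE 0.10; edgeR, adjusted p = 0.00424) and did not pass with scaling by library size alone (-0.05, adjusted p = 0.607). LHX8 did not pass at -0.87 (edgeR, adjusted p = 0.303). It stood at 0.04 without hypothalamus high RFI library 2. It passed in 1 of 20 fits that left out a library, at -1.74 without pituitary low RFI library 4 (edgeR, adjusted p = 0.034). LHX6 had 141 counts in all and was not tested.

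In the block of OTX, PAX, EN, GBX, IRX and BARHL genes, 4 members rose in the pituitary, 15 fell and 2 did not pass, of 22, and GBX1 was not tested. Of all genes tested 38.3% rose and 32.5% fell. OTX2, the forebrain and midbrain factor (ENSGALG00000034889, chromosome 5, 55982611 to 55988753), had 11.6, 19 and 101 CPM in the hypothalamus and 1, 2.08 and 10.3 CPM in the pituitary. Its log2 fold was -3.30 (SE 0.45; edgeR, adjusted p = 3.71e-06), and -2.80 without hypothalamus low RFI library 2, which held the 101 CPM and in which choroid plexus and pineal markers were high. IRX1 and IRX2, neighbours on chromosome 2 (IRX1 at 87109992 to 87114778, IRX2 at 86608324 to 86612432) that act in thalamus and midbrain, were also separated. IRX1 had 15.1, 18.2 and 27.2 CPM against 0.559, 1.33 and 12.8 CPM (log2 fold -2.77, SE 0.47), and IRX2 had 12.6, 16.1 and 18.4 CPM against 0.24, 0.957 and 9.94 CPM (log2 fold -3.18, SE 0.49), with edgeR adjusted p of 4.74e-05 and 1.65e-05. The highest pituitary value of both was in low RFI library 1, without which their log2 folds were -3.52 and -4.12. PAX2, a factor of the midbrain-hindbrain border, had 1.96 CPM in its lowest hypothalamus library and 1.95 CPM in its highest pituitary library, so its separation rests on that gap (log2 fold -2.45, SE 0.54; edgeR, adjusted p = 0.00055), and its log2 fold was -3.10 without pituitary low RFI library 1. GBX2, the thalamus factor (ENSGALG00000013342, chromosome 7, 5218437 to 5220507), had 7.07, 24.6 and 61.4 CPM in the hypothalamus and 0, 0.127 and 37.7 CPM in the pituitary, a log2 fold of -5.09 (SE 1.03; edgeR, adjusted p = 0.000255) and of -7.68 without pituitary low RFI library 1.

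Of the lower members of the block some fell, and others, given after these, rose or did not pass. Pax3, PAX7, Otx5, IRX4 and PAX5 had mean levels of 1.78 to 3.31 CPM in the hypothalamus and 0.198 to 0.854 CPM in the pituitary, with log2 folds of -3.25, -1.93, -1.97, -1.86 and -1.34 in that order, and all 5 passed. PAX5 stood at -0.92 without hypothalamus low RFI library 4 and still passed (edgeR, adjusted p = 0.0381), and Pax3 stood at -4.06 without pituitary low RFI library 1. OTX1, a forebrain and midbrain factor, did not pass, with 4.60 ± 1.30 CPM against 2.68 ± 3.81 CPM (log2 fold -0.98; edgeR, adjusted p = 0.111). Without pituitary low RFI library 4, which held 12.8 CPM, it passed at -1.55 (edgeR, adjusted p = 0.00814). OTX1 passed in only this 1 of 20 fits that left out a library.

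A set of IRX genes on chromosome 11 did not move together. IRX6 rose in the pituitary, with 2.38 ± 0.874 CPM in the hypothalamus and 7.07 ± 5.51 CPM in the pituitary (log2 fold 1.57, SE 0.36; edgeR, adjusted p = 0.000713). IRX5 and IRX3, which lie next to it and to each other at distances of 302.4 and 363.9 kb, fell (log2 folds -1.01 and -1.22; edgeR, adjusted p = 0.0081 and 0.000264). The highest IRX6 value, 21.2 CPM, was in pituitary high RFI library 2, and without it the log2 fold was 1.18. In that library 5 of 6 fibroblast and meninges markers were highest of the pituitary libraries, with a sum of 14900 CPM against 833 to 7360 CPM, and so were all 4 skeletal muscle markers that are not members, with 2000 CPM against 5.74 to 1340 CPM. Their part in the IRX6 level was not tested. PAX1 and PAX9, factors of pharyngeal pouch and skeleton, are named after their values were seen. PAX9 had 0.122 ± 0.128 CPM in the hypothalamus and 2.08 ± 3.35 CPM in the pituitary (log2 fold 3.86; edgeR, adjusted p = 0.000378), and 3.07 without low RFI library 4. PAX1 rose by a log2 fold of 1.44 (edgeR, adjusted p = 0.0195), and without that library it was at 0.68 and did not pass (edgeR, adjusted p = 0.115).

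**Figure D2:**
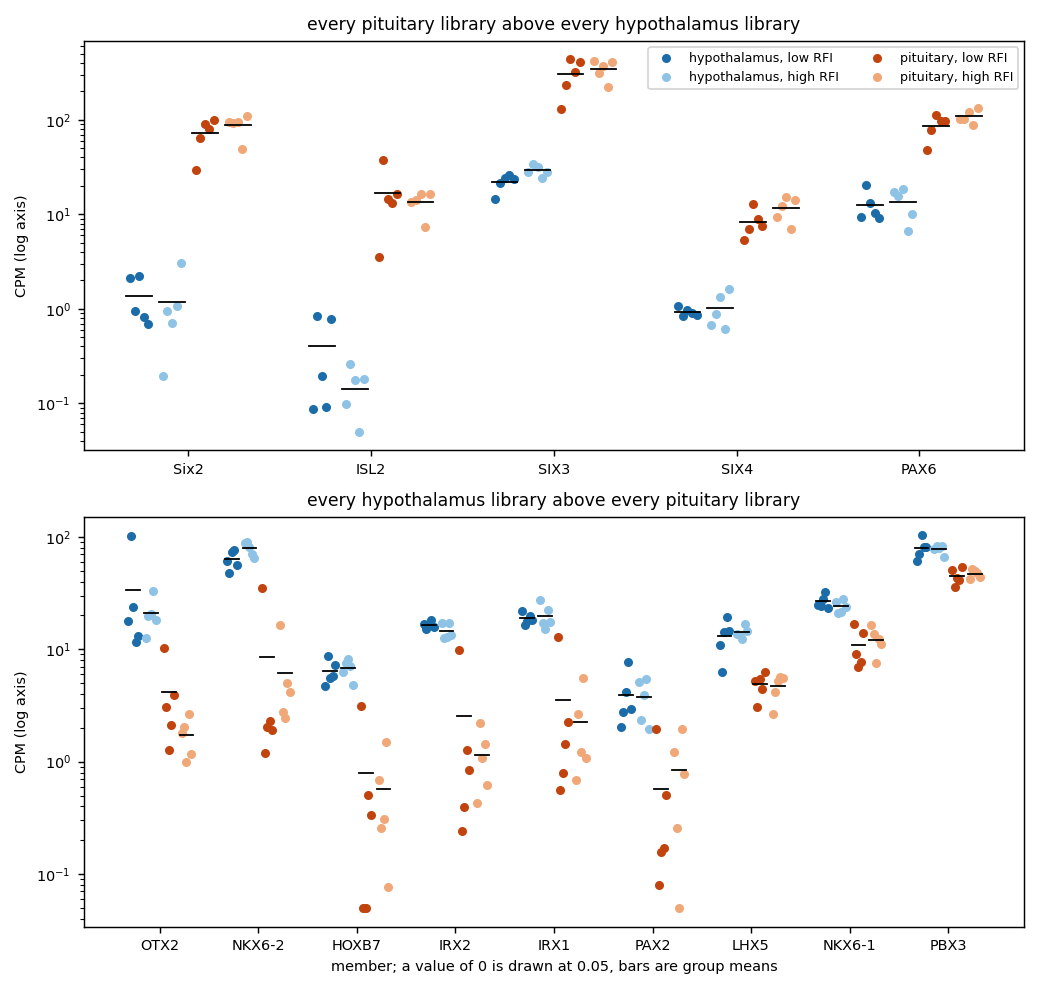
CPM per library on a log axis for 5 members whose 10 pituitary libraries all lie above the 10 hypothalamus libraries and 9 for which the reverse holds. Points are libraries coloured by group, bars are group means, and a value of 0 is drawn at 0.05 CPM; the low RFI point that stands toward the hypothalamus in Six2, NKX6-2, IRX1 and IRX2 is pituitary library 1.

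Of the 11 POU members 9 were tested, of which none rose, 5 fell in the pituitary and 4 did not pass. POU1F1, which the rule does not take, had 201 to 698 CPM in the pituitary and 1.67 to 4.39 CPM in the hypothalamus. Among all genes tested 38.3% rose and 32.5% fell. POU3F3 and POU3F4 are the brain POU factors, used in neural progenitors and in neuroendocrine neurons. POU3F3 (chromosome 1, 136262887 to 136264224) had 9.44, 14 and 17.8 CPM in the hypothalamus and 0.157, 0.886 and 10.7 CPM in the pituitary (log2 fold -2.92, SE 0.59; edgeR, adjusted p = 0.000249), and -4.63 without pituitary low RFI library 1. POU3F4 (chromosome 4, 9063544 to 9064635) had 8.12, 18.2 and 22.2 CPM against 1.43, 3.31 and 10.3 CPM (log2 fold -2.11, SE 0.28; edgeR, adjusted p = 2.49e-06). Of lower members, POU3F1 and POU4F2 fell by 1.31 and 2.76 on the log2 scale (edgeR, adjusted p = 0.00042 and 0.00271), and POU4F2 stood at -3.99 without pituitary low RFI library 2. POU6F1, a POU factor of brain and other tissues, had 6.23 ± 0.812 CPM against 4.89 ± 0.736 CPM (log2 fold -0.35; edgeR, adjusted p = 0.0103) and did not pass with scaling by library size alone (-0.05, adjusted p = 0.708). The gene model called Pou5f3 had 52.3 ± 4.70 CPM and 56.7 ± 11.5 CPM and did not pass (log2 fold 0.11; edgeR, adjusted p = 0.311). With library size alone it was called at 0.41 (edgeR, adjusted p = 0.00157). Its NPDC1 family entry leaves the identity of these reads uncertain. POU2F1, the ubiquitous octamer factor, did not pass at 0.56 (edgeR, adjusted p = 0.13).

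The DLX and EMX genes mark the ventral and dorsal forebrain. EMX2, a factor of cortex and hypothalamic primordium (chromosome 6), fell in the pituitary from 9.38 ± 3.17 to 4.08 ± 1.32 CPM (log2 fold -1.22, SE 0.20; edgeR, adjusted p = 2.87e-05). DLX1 and DLX2, a pair 5.1 kb apart on chromosome 7 that act in GABA neurons, fell by 1.28 and 1.39 on the log2 scale (edgeR, adjusted p = 0.0149 and 0.00946). In DLX1, the highest pituitary value of 8.87 CPM was in high RFI library 4. Of the second pair on chromosome 2, DLX6 passed at -0.82 (edgeR, adjusted p = 0.0364) but in only 9 of 20 fits that left out a library, and DLX5 did not pass, with 4.62 ± 1.82 CPM in the hypothalamus and 5.70 ± 3.91 CPM in the pituitary. DLX3, a factor of placode and epithelium named after its values were seen, was the member of this block that rose: it had at most 0.264 CPM in the hypothalamus and 2.14 ± 1.64 CPM in the pituitary (log2 fold 4.07, SE 0.51; edgeR, adjusted p = 1.43e-06).

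The TALE factors MEIS and PBX are partners that bind DNA together with HOX and other homeodomain proteins, and all 5 were at 10 CPM or more in both tissues. PBX3 (chromosome 17, 10026746 to 10123535) was separated, with 61.4, 80.5 and 103 CPM in the hypothalamus and 36, 45.9 and 54.3 CPM in the pituitary (log2 fold -0.77, SE 0.09; edgeR, adjusted p = 8.18e-07). Meis2a.2 rose, with 84.7 ± 31.1 CPM in the hypothalamus and 144 ± 31.4 CPM in the pituitary (log2 fold 0.77, SE 0.20; edgeR, adjusted p = 0.00193). PBX4, at 0.22, and MEIS1, at -0.24, did not pass (edgeR, adjusted p = 0.0532 and 0.147). MEIS1 passed in 1 of 20 fits that left out a library, at -0.36 without pituitary high RFI library 4 (edgeR, adjusted p = 0.0131). That library held 50.8 CPM against 22.6 to 30 CPM in the other 9.

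HOX genes were low throughout. Of 35, 13 had no count in any library, 6 reached 1 CPM in a library and 2 could be tested. Their sum was 6.82 to 13.6 CPM in the hypothalamus and 1.08 to 4.93 CPM in the pituitary, with the pituitary maximum in low RFI library 1. HOXB7 (chromosome 27, 6207771 to 6211830) made up most of the hypothalamus sum, at 4.67 to 8.68 CPM with a median of 6.68 CPM, against 0 to 3.15 CPM in the pituitary, so the tissues did not overlap (log2 fold -3.26, SE 0.57; edgeR, adjusted p = 5.89e-05). The pituitary maximum was again in low RFI library 1, without which the log2 fold was -4.21. Of the other HOXB genes, HOXB6 and HOXB9 had 0 counts in all 20 libraries and HOXB8 had 44 in all. HOXB3 reached 1.14 CPM in the hypothalamus and 0.257 CPM in the pituitary. HOXB4 and HOXD8 reached more in the pituitary, at most 1.2 and 1.1 CPM against 0.262 and 0.283 CPM, and were not tested. HOXB2, the gene of the anterior hindbrain, fell from 1.51 ± 0.759 to 0.685 ± 0.441 CPM (log2 fold -1.15, SE 0.43; edgeR, adjusted p = 0.024) and did not pass with scaling by library size alone, limma-voom or a replicate block (adjusted p = 0.0693, 0.062 and 0.0721).

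Within the pituitary, 8 tested members were high in 1 library only, by the rule of at least 5 CPM and at least 5 times the next highest library. Of all genes that reached 5 CPM in a pituitary library 2.17% met this rule. Members that reached 5 CPM in a tissue were not counted, so no share of members is set beside it. EN2 had 66.8 CPM (889 counts) in high RFI library 4 and at most 1.8 CPM in the other 9. BARHL1, a factor of cerebellar granule cells, had 50 CPM (665 counts) there and at most 0.231 CPM in the other 9. BARHL2 had 7.97 CPM there against at most 0.97 CPM, and EN1 had 7.89 CPM against at most 0.639 CPM. All 4 had their highest pituitary value in that library, where the cerebellum genes FAT2 and CBLN1 stood at 123 and 648 CPM against at most 2.61 and 209 CPM in the others. NKX2-1 at 24.4 CPM, OTP at 10.4 CPM, LHX1 at 18.9 CPM and MEIS1 at 50.8 CPM were also highest there. Of 12 hypothalamus markers 6 were highest there, among them the neuropeptide genes GHRH and PMCH at 97.8 and 10.6 CPM against at most 39.8 and 1.62 CPM. The summed level of that list without POMC, 734 CPM, lay within the range of the other pituitary libraries, 337 to 1500 CPM. That sum still holds CARTPT, at 282 to 1430 CPM in the pituitary libraries, so it cannot show how the other markers differed. The part of these markers in the members' levels was not tested. Of the 62 members that reached 1 CPM in a pituitary library, 22.6% were highest in high RFI library 4, against 8.85% of all such genes.

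Leaving that library out moved the tissue folds of the 4 genes. BARHL1 had the same mean, 5.04 CPM, in both tissues, but 0 counts in all 5 low RFI pituitary libraries. The contrast averages the RFI groups of a tissue on the log scale, so the group without counts lowers the fold although the means are equal. The log2 fold of BARHL1, -3.92 (edgeR, adjusted p = 0.0488), was -7.17 without high RFI library 4 (adjusted p = 1.79e-06). It passed in 9 of 29 alternatives. EN2 did not pass at -1.85 (edgeR, adjusted p = 0.0631) and passed at -3.90 without that library (adjusted p = 1.33e-05). EN2 passed in 2 of 20 fits that left out a library and in 7 of all 29 alternatives. Those included DESeq2 (-1.89, adjusted p = 0.0264), limma-voom (-2.82, adjusted p = 0.0112) and the replicate block (-2.88, edgeR adjusted p = 0.00109). It did not pass with the other scalings or with no filter. EN1 and BARHL2 passed at -3.40 and -1.95 (edgeR, adjusted p = 0.00211 and 0.0272) and stood at -4.81 and -3.69 without it.

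In pituitary low RFI library 1, GBX2 stood at 37.7 CPM (467 counts) against at most 0.314 CPM in the other 9, and LHX9 at 29.7 CPM (367 counts) against at most 0.451 CPM. NKX6-2 at 35 CPM, IRX1 at 12.8 CPM, IRX2 at 9.94 CPM and POU3F3 at 10.7 CPM were highest there too. In the same library the thalamus marker TCF7L2 stood at 250 CPM against at most 33.1 CPM, the GABA synthesis gene GAD1 at 203 CPM against at most 55.1 CPM and the myelin gene MBP at 12500 CPM against at most 6100 CPM. The 8 thalamus markers, GBX2 among them, summed to 1150 CPM there against 504 to 873 CPM in the other pituitary libraries. Of these markers CALB2, SOX14 and PRKCD were highest in other libraries. These levels of GBX2, LHX9 and TCF7L2 lie within the range of the 10 hypothalamus libraries. The share of members that were highest in low RFI library 1, 21%, was close to that of all genes, 22.2%.

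In pituitary low RFI library 2, POU4F3 (ENSGALG00000034567, chromosome 4) stood at 27.5 CPM (344 counts) against at most 2.46 CPM, and POU4F1 at 10.1 CPM (127 counts) against at most 1.62 CPM. Both belong to the POU4 class of sensory neuron factors. A second gene called POU4F3 (ENSGALG00000043334, chromosome 13) had 62 counts in all and at most 0.479 CPM in the pituitary. The sensory neuron genes SCN11A, TLX3 and DRGX stood at 475, 23.6 and 12.4 CPM in this library, against at most 25, 2.62 and 0.941 CPM in the others. Neither gene passed between tissues in the main fit. POU4F3 was at 1.86 with and -0.10 without this library (edgeR, adjusted p = 0.0929 and 0.903). It passed in 1 of 29 alternatives, at 2.18 without pituitary low RFI library 1 and high RFI library 4 (edgeR, adjusted p = 0.0385). POU4F1 was at -0.50 with and -1.55 without low RFI library 2 (edgeR, adjusted p = 0.54 and 0.0283), and passed in 1 of 20 fits that left out a library. Of all 29 alternatives it passed in 3, among them limma-voom (-1.84, adjusted p = 0.0358) and the fit without the 5 libraries that stood apart (-1.88, edgeR adjusted p = 0.0033). In pituitary low RFI library 4, and named after their values were seen, PAX1 stood at 12.4 CPM, PAX9 at 11.2 CPM, OTX1 at 12.8 CPM and LHX8 at 8.18 CPM, each the highest of its tissue. There the mucosal genes CHIA and PIGR stood at 312 and 204 CPM against at most 1.16 and 1.08 CPM.

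**Figure D3:**
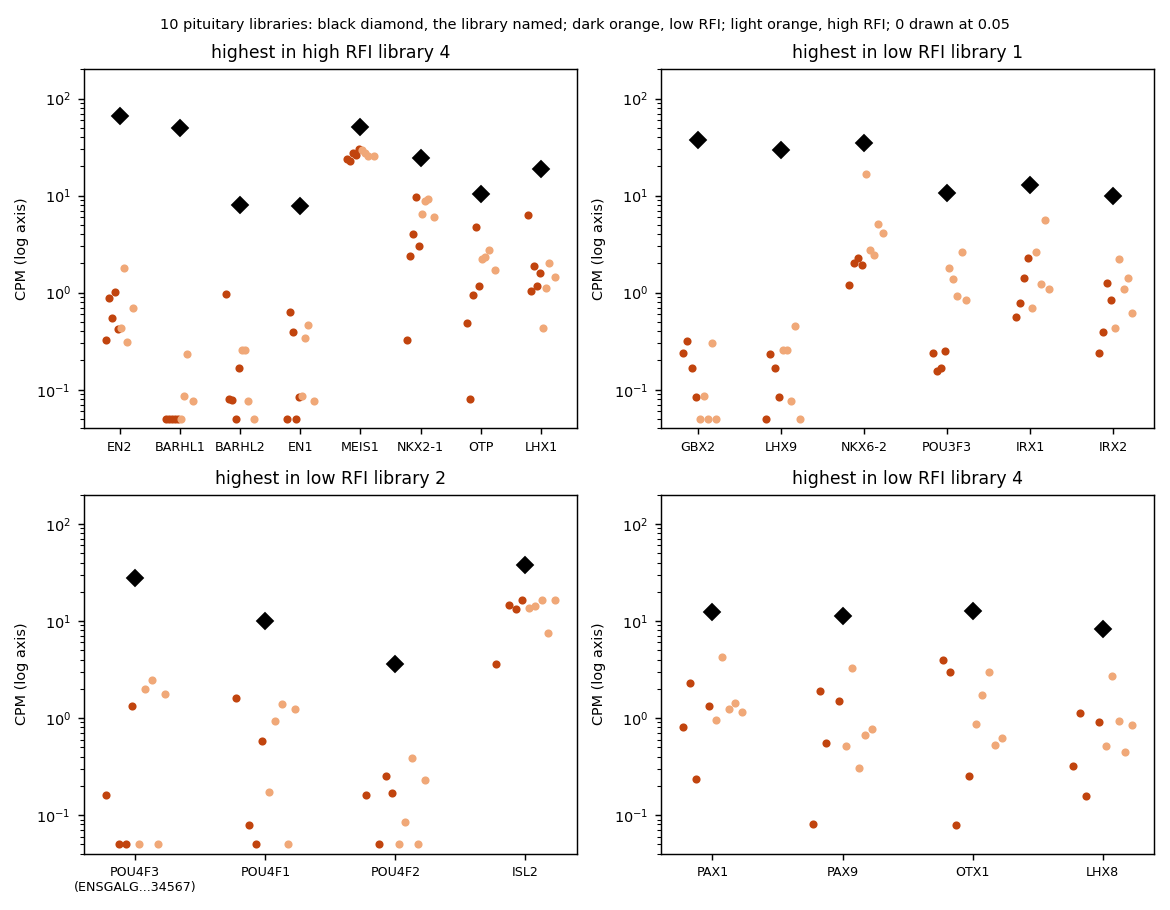
CPM of members in the 10 pituitary libraries on a log axis, in 4 panels by the library that holds the highest value (black diamonds); other low RFI libraries are dark orange, high RFI libraries light orange, and 0 is drawn at 0.05. EN2 and BARHL1 stand at 66.8 and 50 CPM in high RFI library 4, and GBX2 and LHX9 at 37.7 and 29.7 CPM in low RFI library 1, above all other pituitary libraries.

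Within the hypothalamus the members differed between libraries of the same group. EN2 ranged from 1.07 to 26 CPM and EN1 from 0.268 to 22.6 CPM. For EN2 the low RFI libraries 1 to 5 held 2.2, 6.8, 23.8, 26 and 6.13 CPM, and the high RFI libraries 6.82, 6.55, 8.13, 22.6 and 1.07 CPM. Low RFI libraries 3 and 4 and high RFI library 4 were thus the highest, and the same 3 held the 3 highest values of EN1 (14.1, 22.6 and 13.6 CPM) and PAX5 (2.62, 7.11 and 2.38 CPM). PAX2 did not share this order, as high RFI library 1, at 5.16 CPM, lay above low RFI library 3, at 4.17 CPM. The serotonin synthesis gene TPH2, a marker of the raphe nuclei, reached 163 CPM in low RFI library 3, 133 CPM in low RFI library 4 and 16.3 CPM in high RFI library 4, against at most 30.2 CPM in the rest.

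Members of hypothalamus and ventral forebrain did not share 1 pattern. High RFI library 5 held the highest VAX1 (11 CPM), OTP (11 CPM), DLX1 (9.19 CPM) and DLX2 (4.55 CPM) of the 10 libraries, but also the lowest RAX (4.11 CPM). High RFI library 2 held the highest SIX3 (34 CPM), RAX (7.33 CPM), NKX2-1 (5.24 CPM) and DLX5 (7.68 CPM), and DLX6 was at 11 CPM in both libraries. Low RFI library 1 held the lowest OTP (0.353 CPM), NKX2-1 (0.265 CPM), VAX1 (1.23 CPM), SIX3 (14.7 CPM), DLX1 (2.56 CPM), DLX2 (0.794 CPM) and DLX5 (2.2 CPM). Of 12 hypothalamus markers, 3 were highest in high RFI library 5, namely AVP (1240 CPM), TRH (16 CPM) and SIM1 (4.11 CPM), a bHLH factor that acts with OTP in neuroendocrine neurons. Low RFI libraries 2 and 5 also held the highest value of 3 markers each. GBX2, in contrast, was highest in high RFI library 1 (61.4 CPM) and lowest in low RFI library 3 (7.07 CPM). Its values in low RFI libraries 1 to 5 were 41.1, 41.7, 7.07, 18.3 and 42.5 CPM and in high RFI libraries 61.4, 10.3, 29.7, 13.9 and 19.5 CPM. The thalamus factor TCF7L2 was at 408, 481, 154, 178 and 270 CPM and at 452, 163, 168, 160 and 164 CPM in the same order. LHX8, a factor of cholinergic neurons of the ventral forebrain, stood at 23 CPM (263 counts) in high RFI library 2 against at most 3.93 CPM in the other 9, the hypothalamus member that met the rule for 1 high library; 0.859% of genes that reached 5 CPM met it there. Its paralogue LHX6 (3.4 CPM) and GBX1 (4.89 CPM), named after their values were seen, were highest in the same library.

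**Figure D4:**
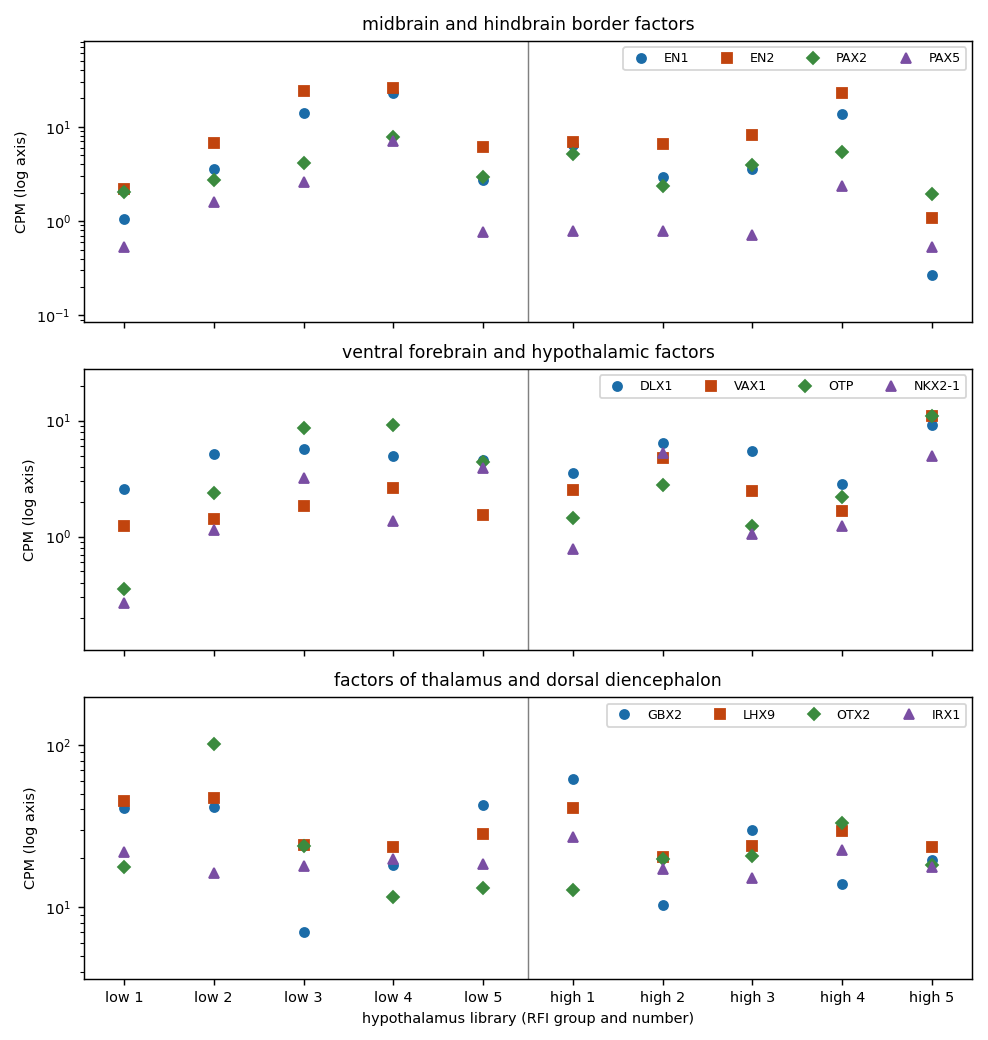
CPM on a log axis of 12 members in the 10 hypothalamus libraries, low RFI on the left and high RFI on the right of the grey line, in 3 panels by region. EN1, EN2 and PAX5 peak in low RFI libraries 3 and 4 and high RFI library 4, VAX1 and OTP reach 11 CPM in high RFI library 5, and OTX2 reaches 101 CPM in low RFI library 2. PAX2 stands higher in high RFI library 1 than in low RFI library 3.

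The comparison of low with high RFI asks whether birds that eat less than predicted differ in these factors. In the hypothalamus 53 members were tested and 0 passed (edgeR, adjusted p of at least 0.964), as did 0 of the 15179 genes tested, 0%. With no adjustment, 6 members (11.3%) and 728 genes (4.8%) had a p under 0.05. DESeq2 called 5 genes and no member. In no member were the groups separated, against 0.85% of genes, 0.283% with low RFI higher and 0.567% lower. The member of smallest p was VAX1, lower in low RFI, measuring 1.23, 1.42, 1.84, 2.65 and 1.55 CPM with low RFI and 2.53, 4.8, 2.47, 1.67 and 11 CPM with high RFI (log2 fold -1.37, SE 0.48; edgeR, unadjusted p = 0.0146, adjusted p = 0.964). Low RFI library 4 lies above high RFI libraries 1, 3 and 4, and without high RFI library 5, the 11 CPM, the log2 fold was -0.73. SIX3 had 14.7, 21.4, 24.2, 26 and 23.5 CPM in low RFI and 28.1, 34, 31.5, 24.4 and 27.9 CPM in high RFI (log2 fold -0.41, SE 0.15; edgeR, unadjusted p = 0.0171, adjusted p = 0.964). The groups overlap in low RFI library 4 and high RFI library 4.

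Of the other members of smallest p, POU3F4 had a mean of 14.3 ± 4.25 CPM in low RFI and 20 ± 2.49 CPM in high RFI (log2 fold -0.48, SE 0.19), NKX6-2 had 63 ± 11.8 and 79.1 ± 11.2 CPM (log2 fold -0.33, SE 0.13), and DLX5 had 3.53 ± 0.988 and 5.7 ± 1.87 CPM (log2 fold -0.69, SE 0.28), each over 5 libraries. The astrocyte and oligodendrocyte markers summed to 25300 to 49500 CPM in low RFI and 40300 to 63400 CPM in high RFI hypothalamus; sum and NKX6-2 were both lowest in low RFI library 2 and both highest in high RFI library 2. Of these 7 markers 4 were lower in low RFI, with a median log2 fold of -0.28, 2 had an unadjusted p under 0.05 and 0 passed (edgeR). Their part in the NKX6-2 level was not tested. BARHL2 was the other member with an unadjusted p under 0.05 (log2 fold -0.82, SE 0.37). In the other direction were IRX2 (log2 fold 0.18, SE 0.13), NKX6-1 (0.14, SE 0.12), LHX9 (0.29, SE 0.24), OTX2 (0.69, SE 0.59) and IRX4 (0.70, SE 0.69). The OTX2 value rests on low RFI library 2, the library with pineal and choroid plexus markers: its low RFI values were 17.7, 101, 23.8, 11.6 and 13.1 CPM, its high RFI values 12.7, 19.9, 20.7, 32.9 and 18.1 CPM, and without library 2 the log2 fold was -0.34. IRX4 stood at 1.41 without high RFI library 4. None of these folds passed under any alternative, and 33 of the 53 tested were lower and 20 higher in low RFI, with a median log2 fold of -0.10 against 0.01 over all genes tested.

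In the pituitary 45 members were tested and 0 passed (edgeR, adjusted p of at least 0.999), as did 0 of 15786 genes, 0%. With no adjustment, 3 members (6.67%) and 296 genes (1.88%) had a p under 0.05, and DESeq2 called 0 genes. In no member were the groups separated, against 0.253% of genes, 0.0887% with low RFI higher and 0.165% lower. NKX2-4, a paralogue of NKX2-1, had 0.0808, 0, 0.236, 0.843 and 0.669 CPM in low RFI and 0.431, 1.2, 1.23, 3.16 and 0.925 CPM in high RFI (log2 fold -1.93, SE 0.78; edgeR, unadjusted p = 0.0329, adjusted p = 0.999). Low RFI libraries 4 and 5 lie above high RFI library 1, and without pituitary low RFI library 1 and high RFI library 4 the log2 fold was -1.10. VAX1 had 0.889, 0.24, 0.314, 1.86 and 0.335 CPM in low RFI and 4.23, 0.941, 1.31, 2.48 and 1.54 CPM in high RFI (log2 fold -1.52, SE 0.62; edgeR, unadjusted p = 0.0339, adjusted p = 0.999). Low RFI library 4, at 1.86 CPM, lies within the high RFI range, and without it the log2 fold was -2.20. VAX1 was thus lower in low RFI in the fits of both tissues, and neither passed.

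OTX2 had 10.3, 3.04, 1.26, 2.11 and 3.93 CPM in low RFI pituitary and 1.81, 2.05, 1, 2.63 and 1.16 CPM in high RFI (log2 fold 1.26, SE 0.55; edgeR, unadjusted p = 0.045), and 0.57 without low RFI library 1, the 10.3 CPM. NKX2-1 had 0.323, 2.4, 4.01, 9.61 and 3.01 CPM in low RFI and 6.47, 8.81, 9.16, 24.4 and 6.09 CPM in high RFI (log2 fold -1.52, SE 0.69; edgeR, unadjusted p = 0.0515). Low RFI library 4 lies inside the high RFI range, and without it the log2 fold was -2.18. Without low RFI library 1 and high RFI library 4, its lowest and highest, the log2 fold was -0.66. EMX2 (log2 fold -0.57, SE 0.26) and SIX4 (-0.47, SE 0.27) were lower in low RFI, and Pou5f3 (0.30, SE 0.16), OTX1 (1.58, SE 1.03), IRX3 (0.70, SE 0.48) and POU4F1 (1.75, SE 1.30) higher. OTX1 stood at 0.46 without low RFI library 4 and POU4F1 at -0.36 without low RFI library 2.

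The difference between tissues in the low minus high RFI fold was tested in a fit of all 20 libraries. None of 61 members and 0% of 16747 genes passed (edgeR). With no adjustment, 5 members (8.2%) and 392 genes (2.34%) had a p under 0.05. Those 5 were GBX2, LHX9, BARHL1, EN1 and EN2, all among the genes high in 1 pituitary library. DESeq2 called 2 genes, of which BARHL1 was the member (log2 difference -23.98, adjusted p = 1.63e-19). Its counts in the pituitary lie almost wholly in high RFI library 4 and are 0 in all 5 low RFI libraries. DESeq2 was not run without that library.

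**Figure D5:**
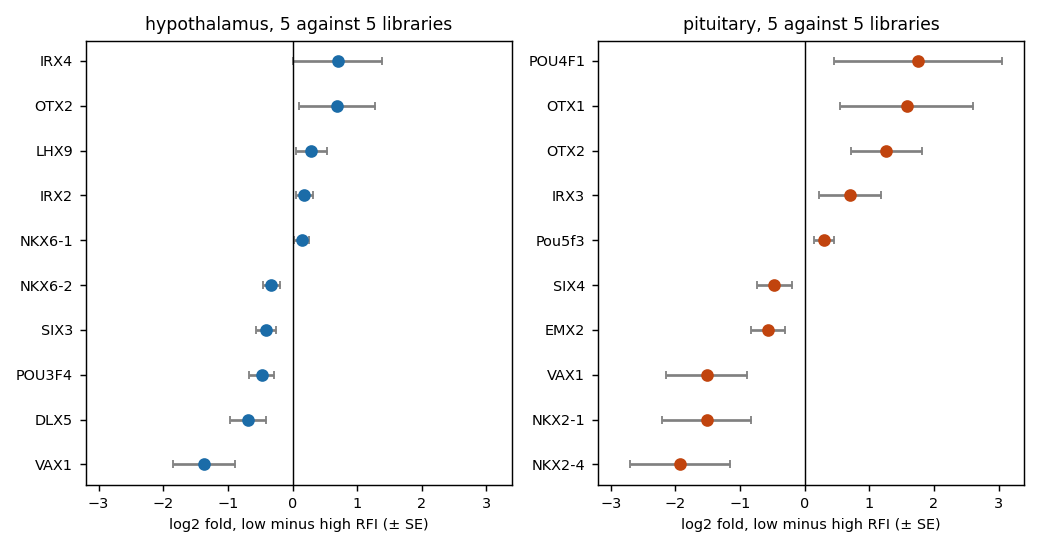
Log2 fold of low minus high RFI with its standard error for the 10 members of smallest p in the hypothalamus and in the pituitary, 5 libraries against 5. VAX1 lies at -1.37 and -1.52, and no fold passed the adjusted threshold.

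Genes of the same pathways that the rule does not take were listed for comparison. Of 60 other homeobox genes of brain and pituitary found in the table, 43 were tested between tissues; 25 rose and 6 fell in the pituitary, with a median log2 fold of 0.69, where 70.8% of all genes tested were called and their median was 0.07. The LIM factor LHX3 and the paired-like factor PITX1, which build the anterior pituitary, had log2 folds of 8.29 and 7.46 (edgeR, adjusted p = 3.94e-07 and 1.9e-10), and SIX6, a paralogue of SIX3, 4.11 (edgeR, adjusted p = 1.55e-08). Of 43 regional factors without a homeodomain, 40 were tested; 11 rose and 16 fell, with a median of -0.89. TBX19, the corticotroph factor, was at 7.59 and the thalamus factor SOX14 at -3.23. None of either list passed for RFI in either tissue (edgeR), and a p under 0.05 before adjustment was found for 3 of 33 and 3 of 37 in the hypothalamus and 3 of 38 and 1 of 32 in the pituitary, against 4.8% and 1.88% of all genes tested. These lists were chosen with earlier results of these data known.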

How the data were processed

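Poly-A or other RNA selection is not given in the sources used here; total RNA was extracted with TRIzol and had an integrity number of at least 7.7, per the labels' protocols. The authors deposited raw read counts per gene and FPKM for 20 libraries. HISAT2 2.0.5, DESeq2 1.20.0 and the GRCg6a build are named in the submitters' processing notes; the sources used here do not name the counting tool or say whether strand was used. The FPKM of the authors equal the deposited counts divided by gene length and by a library size. All value columns were matched to a sample, and 0 were left unmatched. No pair of libraries within a group agreed within sampling noise (chi-square statistics over genes were 8.41 to 212 times their degrees of freedom).

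From the counts, edgeR 4.0.16 in R 4.3.3 was run with TMM scaling, filterByExpr by group (min.count 10), robust quasi-likelihood tests and Benjamini-Hochberg adjustment over all genes, at a threshold of 0.05. Tissue and the difference between tissues were fitted on all 20 libraries, and RFI on the 10 of each tissue. Alternatives were RLE, upper-quartile and library-size scaling, no filter, DESeq2 1.42.0, limma-voom (limma 3.58.1), each library left out, 2 or 5 libraries left out together (the 5 are hypothalamus low RFI library 2, pituitary low RFI libraries 1, 2 and 4 and pituitary high RFI library 4, the 2 are pituitary low RFI library 1 and high RFI library 4), and a replicate block.

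The members, the gene lists and the libraries left out together were chosen with earlier results of these data known. Within each family block the text names up to 4 members of highest mean CPM in either tissue, up to 3 per direction of largest fold among those called whose tissues do not overlap, up to 5 per direction of smallest p for RFI in each tissue, and members with 1 library at 5 CPM or more and at least 5 times the next. Outside this rule, DLX2, DLX3, GBX1, HOXB6, HOXB9, IRX5, LHX6, Otx5, PAX1, PAX2, Pax3, PAX5, PAX7, PAX9, PBX4, POU3F1, POU4F2, RAX2 and the second POU4F3 are named after their values were seen. Some genes are not reported here.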

Additional observations from a re-analysis of the deposited data

Results flagged for a closer look

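In 23 of 177 pairs of a member and a group of 5 libraries, 1 library lay apart from the other 4 by Dixon's criterion. A rate of 5% would give about 8.8, but that number is no reference for chance here. Only named members were tested, some of them named because 1 library was high, and the pairs share libraries. In pituitary high RFI library 4 the highest values were EN2 at 66.8 CPM against 0.308 to 1.8 CPM in the other 4, MEIS1 at 50.8 against 25.4 to 29.7, BARHL1 at 50 against 0 to 0.231, NKX2-1 at 24.4 against 6.09 to 9.16 and OTP at 10.4 against 1.7 to 2.77 CPM. BARHL2 at 7.97 against 0 to 0.259 CPM and EN1 at 7.89 against 0.0771 to 0.462 CPM were also highest there, and Six2 at 48.8 against 93.7 to 110 CPM and ISL2 at 7.44 against 13.5 to 16.5 CPM were lowest. In pituitary low RFI library 1 the highest were GBX2 at 37.7 against 0.0837 to 0.314 CPM, NKX6-2 at 35 against 1.2 to 2.28, LHX9 at 29.7 against 0 to 0.236 and POU3F3 at 10.7 against 0.157 to 0.251 CPM. In pituitary high RFI library 2, IRX6 at 21.2 against 3.47 to 5.31 CPM and IRX3 at 3.93 against 1.38 to 1.62 CPM were highest and POU2F1 at 1.28 against 3.78 to 5.61 CPM was lowest.

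In the hypothalamus, high RFI library 4 held the highest IRX4, 4.23 against 0.873 to 1.16 CPM, and the highest HOXB3, 1.14 against 0 to 0.175 CPM. Low RFI library 1 held the highest HOXB8, 1.15 against 0.173 to 0.194 CPM, and the lowest DLX1, 2.56 against 4.57 to 5.72 CPM, and BARHL2, 0.794 against 1.89 to 2.42 CPM. Low RFI library 3 held the highest LHX8 of its group, 3.1 against 0.755 to 1 CPM, and low RFI library 5 the lowest IRX6, 1.12 against 2.08 to 2.52 CPM. What sets these libraries apart was not tested.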

How the results depend on the processing

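Between tissues 49 members were called, against 44 with library size alone, 47 with DESeq2, 49 with limma-voom, 53 and 51 without the 2 or 5 libraries that stood apart, 58 with no filter, and 47 to 51 (11576 to 12341 of all genes) when each library was left out. With each library left out, 45 of the 49 were called in every fit; BARHL1, BARHL2, DLX6 and PAX1 were not. Direction turned in the tissue fold of MEIS1 with library size alone (0.06), of POU4F3 (ENSGALG00000034567) with limma-voom (-0.60) and, over single libraries left out, from -0.10 to 2.09, and of LHX8 from -1.74 to 0.04. For RFI it turned for OTX2 in the hypothalamus, from -0.34 to 0.91, and for POU4F1 in the pituitary, from -0.36 to 2.10. The cause was not tested. For RFI, DESeq2 called 5 genes in the hypothalamus, and for the difference between tissues 2 genes, of which 1 was a member, where edgeR called 0. With library size alone BARHL1, BARHL2, DLX1, DLX6, HOXB2, LHX4-AS1, NKX2-2, POU6F1 and VAX1 were not called between tissues.

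With the mean of each group removed, libraries of the same number showed correlations of -0.35 to 0.38. Libraries of different numbers were not compared, so these values cannot tell whether a number marks the same birds. The labels do not say it either. With a replicate block 50 members and 11574 genes were called between tissues and 0 for RFI. Counts near the limit of 3 per library, worth 0.225 to 0.292 CPM, leave differences in most HOX genes not detectable at this depth; this limit covers counting error alone.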
